A study of Mus musculus with 12 samples.

Results

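The 10 circadian clock genes Clock, Arntl, Per1, Per2, Per3, Cry1, Cry2, Nr1d1, Nr1d2 and Dbp were followed through the retinal transcriptome of 3 mouse models of inherited photoreceptor degeneration. They were picked by gene name, each name matched 1 row of the gene table of 32867 genes, and all 10 passed the filter on low counts in every comparison. Total retina RNA came from 3 samples of rd1 mice (Pde6b rd1) at postnatal day 13, 3 of rd10 mice (Pde6b rd10) at day 23, 3 of rd2 mice (Prph rd2) at day 29 and 3 of C3H wild-type mice, which the labels place at days 13, 23 and 29, 1 sample each. The labels mark these days as the time at which photoreceptor death peaks. Rd1 and rd10 both carry mutations of the rod phosphodiesterase gene Pde6b, and rd2 carries one of the gene for peripherin, a protein of the outer segment rim. The methods place C3H, rd1 and rd2 on the C3H background and rd10 on C57Bl6/J, while the strain label of rd2 names C57BL6/J. Animals of either sex were used. The time of day at which tissue was collected is not given in the sources used here.

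The mammalian clock is a feedback loop of transcription. CLOCK and ARNTL (also called BMAL1) bind E-box sequences as a pair and switch on the Per and Cry genes, whose proteins return to the nucleus and shut that pair off. In a further loop, the nuclear receptors NR1D1 and NR1D2 (REV-ERB alpha and beta) repress Arntl through ROR response elements (RORE), so that Arntl peaks when its targets are low. DBP is an output factor of the loop that binds D-box sequences. The retina holds its own clock, in photoreceptors and in inner neurons, which sets daily rhythms of dopamine and melatonin release, of visual sensitivity and of outer segment renewal. A single collection per animal measures a level and no rhythm.

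The motifs through which these loops act were sought in the RefSeq promoters of GRCm38.p6, in windows from 250 bases before to 50 bases after an annotated start. Of the 10 genes, 9 matched, with 13 windows, and Per2 has no entry. Both strands were searched for the E-box CACGTG, the D-box TTATGNAA, the RORE core TAGGTCA and the cyclic AMP element TGACGTCA. The stretches shown hold every match found in the 13 windows, are given 5′ to 3′ on the strand of the gene, and carry the motif letters in capitals. Per3 is at chr4:151044666-151044915, Per1 at chr11:69098699-69098948, Cry1 at chr10:85185055-85185304 and the Arntl site at chr7:113207530-113207559.
Per3: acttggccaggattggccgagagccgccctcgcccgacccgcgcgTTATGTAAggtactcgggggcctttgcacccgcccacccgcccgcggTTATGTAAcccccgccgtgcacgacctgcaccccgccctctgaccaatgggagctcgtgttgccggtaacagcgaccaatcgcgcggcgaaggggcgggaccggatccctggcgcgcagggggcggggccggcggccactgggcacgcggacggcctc
Per1: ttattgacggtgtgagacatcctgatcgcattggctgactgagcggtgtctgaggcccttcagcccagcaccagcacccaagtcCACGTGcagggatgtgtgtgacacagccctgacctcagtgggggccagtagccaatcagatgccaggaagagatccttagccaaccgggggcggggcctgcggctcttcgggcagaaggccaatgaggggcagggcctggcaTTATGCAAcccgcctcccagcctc
Cry1: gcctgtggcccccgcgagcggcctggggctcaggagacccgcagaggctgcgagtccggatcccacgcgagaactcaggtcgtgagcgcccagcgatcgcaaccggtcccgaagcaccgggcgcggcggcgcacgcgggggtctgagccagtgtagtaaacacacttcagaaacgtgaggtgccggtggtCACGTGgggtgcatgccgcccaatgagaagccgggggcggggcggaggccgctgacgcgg
Arntl: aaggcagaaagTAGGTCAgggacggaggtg
Per3 held 2 D-boxes, which begin at positions -205 and -158 from the start. Per1 held an E-box at -166 and a D-box at -24, and Cry1 an E-box at -60. Arntl held the RORE core at position 30, past its start. In all, 2 of the 9 genes had an E-box, 2 a D-box, 1 a RORE core and 0 the cyclic AMP element. Among all 27025 genes with a window, 8.09% had the E-box, 3.99% the D-box, 2.97% the RORE core and 2.03% the cyclic AMP element. A match is a description of letters and not of binding, and the absence of one says only that the letters are not in that window.

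The 12 libraries held 17049495 to 24755890 reads on genes, so that 3 counts, the floor used here, equal 0.121 to 0.176 CPM, the read count scaled to a fixed library total. This floor takes in only the error of counting. Each pair of libraries of a group differed by more than counting noise, with a chi-square per gene of 1.72 to 10.9. The biological coefficient of variation was 3.08% in C3H, 3.31% in rd1, 4.97% in rd10 and 7.4% in rd2. The 3 C3H libraries were therefore no more apart than the 3 rd1 libraries, although their labelled ages differ. The summed level of 10 genes of the immature retina, among them Dcx and Sox11, was 577 CPM in the C3H library labelled day 13, 585 CPM in that of day 23 and 609 CPM in that of day 29. In the rd1 libraries, labelled day 13 as well, it was 926 to 958 CPM. The C3H libraries thus showed no fall of this sum with labelled age, and each comparison is given with all 3 and with the library of the model's own labelled day. Model and age cannot be told apart in these groups, and in rd10 neither can strain. Since the time of day of collection is not given, model and hour of collection cannot be told apart either. Words such as fell and rose describe differences between groups and not effects of the model. In whole retina, fewer cells of a type and less RNA per cell cannot be told apart either. Reads on Pde6b fell in rd1 (log2 fold change of -2.16), from 24335 to 29129 in C3H down to 4937 to 6253, and reads on Prph2 fell in rd2 (-1.06), from 52768 to 65756 down to 30656 to 34634. Both genes were lower in the other models too: Prph2 had -0.83 in rd1, with 29041 to 35541 reads, and -0.49 in rd10, and Pde6b had -0.57 in rd10 and -0.24 in rd2.

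All 10 clock genes were detected in each of the 12 samples. Levels are compared between genes per length, as FPKM, the deposited values that divide reads by gene length and library total. In C3H the highest was Nr1d2, at 41.3 ± 2.02 FPKM (SD, n = 3), followed by Dbp at 36.2 ± 0.78 and Nr1d1 at 33.9 ± 0.882. Cry2 was at 20.1 ± 0.417, Clock at 18.2 ± 0.986, Arntl between 15.8 and 16.1, Cry1 at 15.2 ± 0.547 and Per1 at 12.5 ± 0.368 FPKM. Per3, at 9.68 ± 0.252, and Per2, at 3.48 ± 0.105 FPKM, were the lowest. Of neighbours in this order, only Arntl and Cry1 had touching ranges, since Cry1 ran from 14.8 to 15.8 FPKM. The REV-ERB genes and Dbp were thus the most abundant clock transcripts per length in wild-type retina, and Per2 the least. Levels of 1 gene across samples are given below in CPM, scaled between libraries by edgeR's TMM factors.

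**Figure D1:**
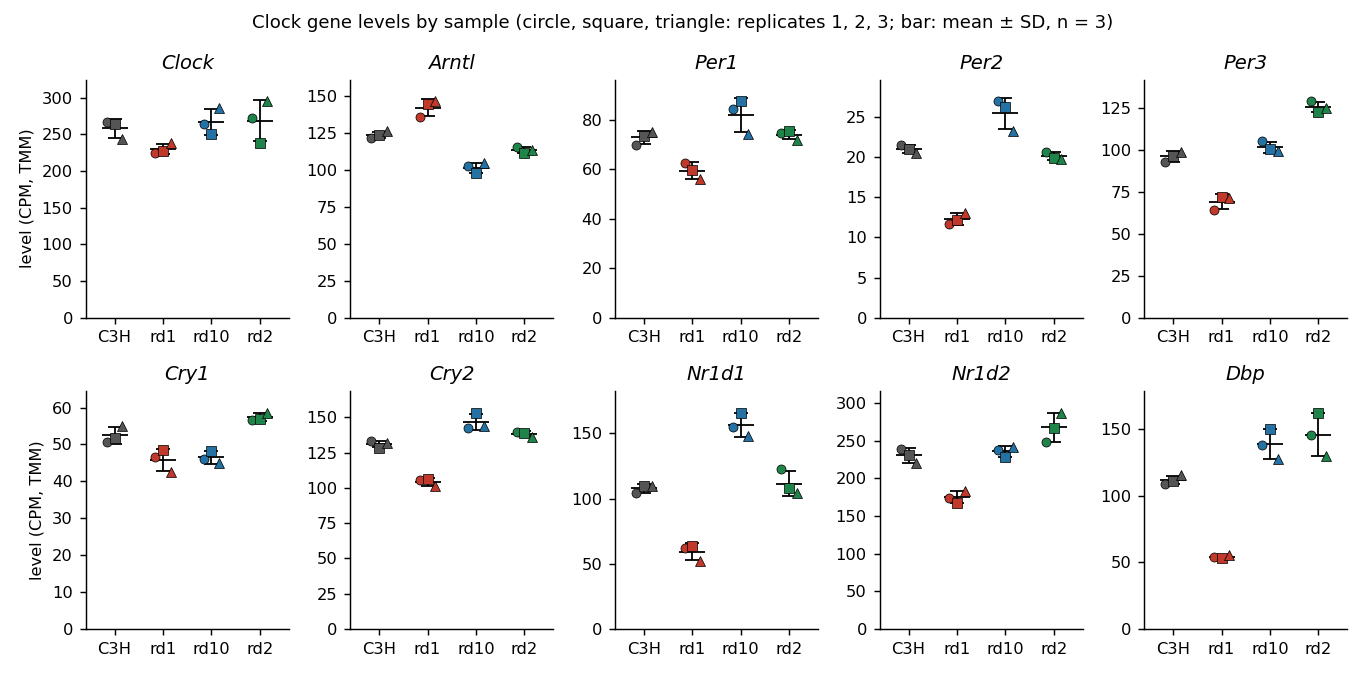
Level of each clock gene in CPM (vertical axes from 0) in the 12 samples, grouped as C3H, rd1, rd10 and rd2. Circle, square and triangle stand for replicates 1, 2 and 3, and the bar gives mean ± SD of 3 samples. For Dbp, the rd1 samples lie between 53.1 and 55.3 CPM and the C3H samples between 109 and 115 CPM.

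In rd1, Dbp, Nr1d1 and Per2 fell. Dbp was 2.03-fold, Nr1d1 1.79-fold and Per2 1.69-fold lower than in C3H, and these 3 of the 10 genes passed the call rule, an unadjusted p under 0.05 with a fold change of at least 1.5 in edgeR's quasi-likelihood test. None was called higher. Of all 18310 genes tested, 6.03% were called lower and 8.98% higher. With an adjusted p under 0.05 as the only rule, 9 of the 10 were lower and 1, Arntl, was higher, where 21.3% of all genes were lower and 21.9% higher. The median log2 fold change of the 10 genes was -0.34, against -0.011 over all genes.

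Dbp, the output factor, lies at chr7:45705088-45710203 on the plus strand. Its level was 109, 111 and 115 CPM in the C3H samples and 54.1, 53.1 and 55.3 CPM in the rd1 samples. The rd10 samples held 138, 150 and 128 CPM and the rd2 samples 145, 162 and 130 CPM. Both groups of older mutants thus lay above C3H and rd1 below it, without overlap, while rd10 and rd2 overlapped each other. The log2 fold change against C3H was -1.02 in rd1 (standard error, SE, of 0.041, adjusted p = 1.08e-15). It was 0.31 in rd10 (SE 0.052, adjusted p = 3.51e-05) and 0.39 in rd2 (SE 0.067, adjusted p = 0.002), both short of the 1.5-fold needed for a call. Of its 2993 exon bases, 539 overlap exons of Sphk2 on the opposite strand, and whether the reads were counted by strand is not stated, so that reads of both genes cannot be told apart there. Sphk2 itself was tested at log2 fold changes of -0.032 in rd1 (adjusted p = 0.719), -0.23 in rd10 (adjusted p = 0.0105) and 0.089 in rd2 (adjusted p = 0.631).

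Nr1d1, the repressor of the further loop, lies at chr11:98767932-98775333 on the minus strand. Its C3H levels were 104, 110 and 110 CPM and its rd1 levels 62.2, 63.5 and 51.9 CPM. It stood at 155, 166 and 148 CPM in rd10 and at 122, 108 and 104 CPM in rd2. The order was therefore rd1, then C3H and rd2 with overlapping values, then rd10. Its log2 fold change was -0.84 in rd1 (SE 0.054, adjusted p = 7.48e-12), 0.53 in rd10 (SE 0.047, adjusted p = 4.8e-09) and 0.050 in rd2 (SE 0.062, adjusted p = 0.685). The rd10 value, a fold of 1.45, was the nearest to a call among the members in that model, and limma on log2(FPKM + 0.1) called it at 0.59. Thra shares 8.5% of the exon bases of Nr1d1 on the opposite strand and had log2 fold changes of 0.039, -0.22 and -0.18 in rd1, rd10 and rd2.

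Nr1d2, its paralog, at chr14:18204054-18239127 on the minus strand, moved less. C3H samples held 240, 231 and 220 CPM, rd1 samples 174, 168 and 183 CPM, rd10 samples 238, 228 and 242 CPM, and rd2 samples 249, 267 and 287 CPM. Rd1 was lowest and rd2 highest without overlap, with C3H and rd10 together in between. The log2 fold change was -0.37 in rd1 (SE 0.038, adjusted p = 2.24e-08), 0.032 in rd10 (adjusted p = 0.531) and 0.22 in rd2 (SE 0.057, adjusted p = 0.0256), and none was called.

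Among the Period genes, which encode the repressors that gather in the cytoplasm before they return to the nucleus, Per2 (chr1:91415982-91459324, minus strand) moved most in rd1. It held 21.5, 21.1 and 20.5 CPM in C3H and 11.7, 12.2 and 13.1 CPM in rd1. Its rd10 samples reached 27.0, 26.3 and 23.3 CPM and its rd2 samples 20.7, 19.9 and 19.8 CPM, so that rd2 overlapped C3H and rd10 lay above both. The log2 fold change was -0.75 in rd1 (SE 0.077, adjusted p = 2.29e-08), 0.28 in rd10 (SE 0.073, adjusted p = 0.00316) and -0.062 in rd2 (adjusted p = 0.654). Per2 was the lowest of the members, and the limma fit on log2(FPKM + 1), which shrinks low genes, gave -0.50 in rd1, short of a call.

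Per3 (chr4:151003652-151044665, minus strand) separated all 4 groups. C3H samples stood at 92.8, 96.4 and 99.0 CPM, rd1 samples at 64.1, 72.0 and 71.1 CPM, rd10 samples at 105, 101 and 99.2 CPM and rd2 samples at 129, 123 and 125 CPM. The nearest groups were C3H and rd10, whose closest samples were 99.0 and 99.2 CPM. Its log2 fold change was -0.45 in rd1 (SE 0.046, adjusted p = 1.86e-08), 0.083 in rd10 (adjusted p = 0.127) and 0.39 in rd2 (SE 0.050, adjusted p = 0.000148). The rd2 value was the largest difference of any member in that model, at a fold of 1.31. Per1 (chr11:69095217-69109960, plus strand) ranged from 70.0 to 75.0 CPM in C3H, from 56.0 to 62.5 in rd1, from 74.4 to 87.5 in rd10 and from 71.8 to 75.5 CPM in rd2. Only rd1 stood apart from the other groups, with a log2 fold change of -0.27 (SE 0.048, adjusted p = 6.47e-05), while rd10 had 0.17 (adjusted p = 0.0139) and rd2 0.023 (adjusted p = 0.841).

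The Cryptochromes, partners of the Period proteins in repression, differed from each other. Cry2 (chr2:92403646-92434043, minus strand) ranged from 128.5 to 133 CPM in C3H, from 101 to 107 in rd1, from 143 to 153 in rd10 and from 136.5 to 140 CPM in rd2, with no overlap of any groups. Its log2 fold change was -0.30 in rd1 (SE 0.037, adjusted p = 4.5e-07), 0.16 in rd10 (adjusted p = 0.0036) and 0.079 in rd2 (adjusted p = 0.332). Cry1 (chr10:85131700-85185064, minus strand) ranged from 50.6 to 55.0 CPM in C3H, from 42.5 to 48.5 in rd1, from 45.1 to 48.3 in rd10 and from 56.6 to 58.6 CPM in rd2. It was the only member, beside Arntl in rd10, that was lower in rd10 than in C3H at an adjusted p under 0.05, with a log2 fold change of -0.18 (SE 0.054, adjusted p = 0.00975), close to the -0.17 of rd1 (adjusted p = 0.0129).

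Arntl, the activator that the REV-ERB proteins repress, lies at chr7:113207465-113314126 on the plus strand. Its level was 122, 124 and 126 CPM in C3H and 136, 145 and 146.5 CPM in rd1. In rd10 it was 102, 97.9 and 104 CPM, and in rd2 115.5, 111 and 113.5 CPM. The 4 groups did not overlap, in the order rd10, rd2, C3H and rd1, and Arntl was the only member that was highest in rd1. The log2 fold change was 0.22 in rd1 (SE 0.038, adjusted p = 3.58e-05), -0.29 in rd10 (SE 0.043, adjusted p = 8.09e-06) and -0.13 in rd2 (SE 0.047, adjusted p = 0.111), none of them 1.5-fold. Clock (chr5:76209868-76304792, minus strand), its partner, ranged from 244 to 266 CPM in C3H, from 225 to 238 in rd1, from 251 to 285 in rd10 and from 239 to 295 CPM in rd2. It had log2 fold changes of -0.14 in rd1 (SE 0.037, adjusted p = 0.00303), 0.048 in rd10 (adjusted p = 0.401) and 0.059 in rd2 (adjusted p = 0.662).

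**Figure D2:**
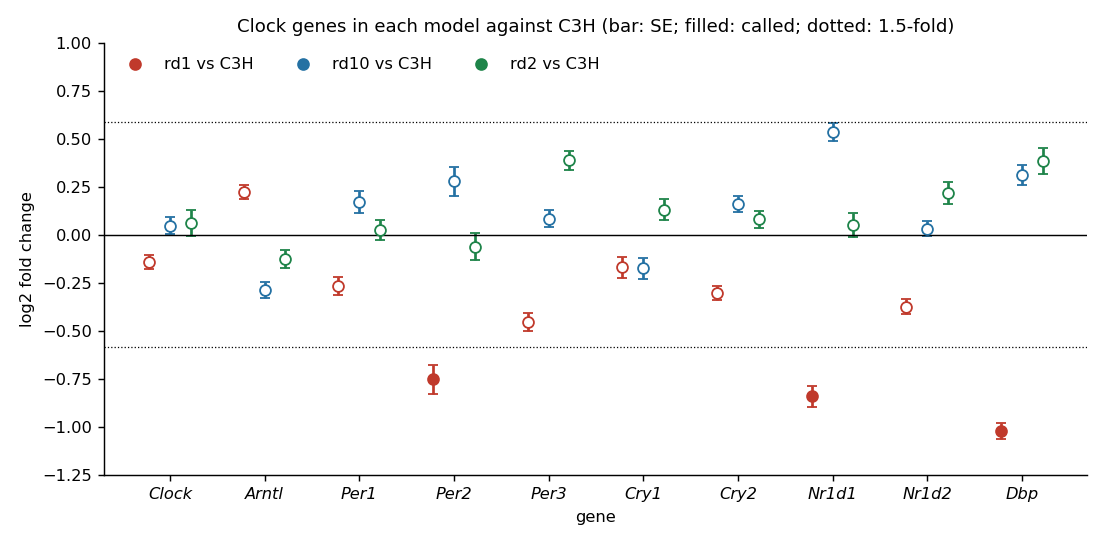
Log2 fold change of each clock gene (horizontal axis) in rd1, rd10 and rd2 against C3H, with its standard error (SE) from the edgeR fit of 3 against 3 samples. Filled points were called and dotted lines mark a fold change of 1.5; the 3 filled points are Per2, Nr1d1 and Dbp in rd1, at -0.75, -0.84 and -1.02.

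In rd10, 0 of the 10 genes were called in either direction, where 15.9% of 18704 genes were called higher and 8.08% lower. At an adjusted p under 0.05, 7 differed. Nr1d1, Dbp, Per2, Per1 and Cry2 were higher, by log2 values from 0.16 to 0.53, and Arntl and Cry1 were lower, where 27.7% of all genes were higher and 26.3% lower. The median of the 10 genes was 0.12, against -0.0025 over all genes. These 7 were also those with an unadjusted p under 0.05, and DESeq2 called 0.

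In rd2, again 0 of the 10 genes were called, among 18581 genes of which 2.68% were called higher and 1.89% lower. Per3, Dbp and Nr1d2 were higher at an adjusted p under 0.05, where 4.53% of all genes were higher and 5.17% lower, and their folds were 1.31, 1.31 and 1.16. The other 7 had log2 fold changes between -0.13 and 0.13. Of the 10, 5 had an unadjusted p under 0.05, among them Arntl and Cry1, and DESeq2 called 0. The median was 0.07, against -0.0012 over all genes.

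Since the 3 models share the C3H samples, they were also compared with each other directly, in a fit of all 12 samples. Rd10 and rd1 carry different alleles of the same gene, and also differ in labelled age and, by the methods, in strain. Nr1d1 was 2.64-fold, Dbp 2.56-fold and Per2 2.08-fold higher in rd10 than in rd1. Their log2 differences were 1.40 (SE 0.071, adjusted p = 9.95e-13), 1.36 (SE 0.070, adjusted p = 1.45e-12) and 1.06 (SE 0.076, adjusted p = 2.55e-10). These 3 were called higher, among 17.6% of 19616 genes called higher and 11.2% called lower. Without the second rd1 sample Per3 was called too, at 0.59 in place of 0.56. At an adjusted p under 0.05, 8 members were higher and Arntl was lower in rd10, at -0.48 (SE 0.044, adjusted p = 9.64e-09), where 30.2% of all genes were higher and 27% lower. Cry1 had a difference of 0.021 (SE 0.057, adjusted p = 0.778).

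Between rd1 and rd2, 5 members were lower in rd1 by the call rule. They were Dbp at -1.43 (fold of 2.69), Nr1d1 at -0.91, Per3 at -0.86, Per2 at -0.71 and Nr1d2 at -0.62 on the log2 scale, with SE from 0.050 to 0.0765 and adjusted p from 2.28e-12 to 2.76e-07. In this contrast 8.21% of all genes were called lower and 8.66% higher. Nr1d2 was not called without the third rd2 sample, at -0.56. By adjusted p alone, all 10 differed, 9 lower and Arntl higher at 0.33, where 21.3% of all genes were lower and 18.5% higher. Between rd10 and rd2, 0 were called, where 13.5% of all genes were called higher and 6.16% lower, and 7 differed at an adjusted p under 0.05. Nr1d1, Per2 and Per1 were higher in rd10, by 0.49, 0.34 and 0.15, and Cry1, Per3, Nr1d2 and Arntl were lower, by -0.30, -0.30, -0.18 and -0.16, where 22.6% of all genes were higher and 21.3% lower. Dbp did not pass in this contrast, at -0.073 (SE 0.065, adjusted p = 0.396).

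A ratio of 2 genes within a sample does not depend on how libraries are scaled. The log2 ratio of Dbp to Arntl reads was -0.16, -0.16 and -0.13 in the C3H samples and -1.33, -1.45 and -1.41 in the rd1 samples. It was 0.43, 0.62 and 0.29 in rd10 and 0.33, 0.54 and 0.20 in rd2. Dbp reads thus outnumbered Arntl reads in each rd10 and rd2 sample and in none of the C3H and rd1 samples. The ratio of Nr1d1 to Arntl averaged -0.20 ± 0.03 in C3H, -1.27 ± 0.20 in rd1, 0.62 ± 0.13 in rd10 and -0.03 ± 0.11 in rd2 (SD, n = 3). That of Per2 to Cry1, repressor genes of the same loop, averaged -1.32 ± 0.10, -1.90 ± 0.17, -0.87 ± 0.09 and -1.51 ± 0.06 in the same groups. With 3 samples a group an exact permutation test cannot go below p = 0.10, and the ratios are given as a description.

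**Figure D3:**
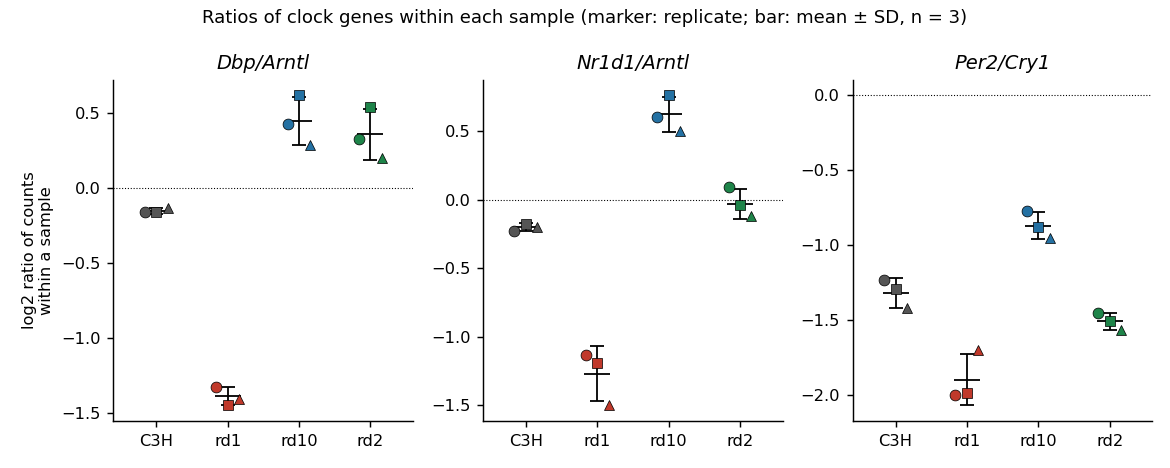
Log2 ratio of reads of Dbp to Arntl, Nr1d1 to Arntl and Per2 to Cry1 within each sample, by group. Markers are replicates 1 to 3 and bars give mean ± SD of 3 samples; the rd1 samples are lowest and the rd10 mean is highest in all 3 panels, with Dbp/Arntl between -1.45 and -1.33 in rd1 and between 0.29 and 0.62 in rd10.

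Each comparison was repeated with only the C3H library of the model's own labelled day. For rd1 the same 3 members were called, Nr1d1 and Per2 at a log2 fold change of -0.80 each and Dbp again as the lowest, and 9 of the 10 had an adjusted p under 0.05. For rd10, 0 were called and 3 had an adjusted p under 0.05, Nr1d1 at 0.51, Dbp at 0.31 and Arntl at -0.29. For rd2, 0 were called and 0 passed the adjusted p, with Dbp and Per3 at 0.35 each. The lone C3H sample is assumed here to vary like the model group.

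Beyond the 10 members, 18 further genes of the clock were tested: paralogs of the activators, accessory repressors, ROR receptors, other D-box factors, and enzymes that modify or degrade clock proteins. In rd1, 4 of the 18 were called lower and 0 higher, beside 6.03% and 8.98% of all genes, with a median log2 fold change of -0.13. Usp2, a deubiquitinase with a strong daily rhythm, fell by 1.08 on the log2 scale (SE 0.052, adjusted p = 2.83e-14), from 69.2 to 74.5 CPM in C3H to 31.5 to 34.9 CPM. Hlf, which binds the same D-box as DBP, fell by 1.05 (SE 0.034, adjusted p = 1.72e-17), from 211 to 212 CPM to 98.4 to 102 CPM. Bhlhe40 and Ciart, repressors of the CLOCK and ARNTL pair, fell by 0.92 (adjusted p = 8.43e-10) and 0.66 (adjusted p = 0.000327). Tef, the remaining D-box activator, was lower by 1.44-fold, at -0.52 (adjusted p = 1.86e-12), short of a call.

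In rd10, 4 of the 18 were called higher and 0 lower, beside 15.9% and 8.08% of all genes, with a median of 0.27. Bhlhe40 rose by 1.28 (SE 0.062, adjusted p = 2.84e-13), from 29.6 to 31.2 CPM in C3H to 68.5 to 80.7 CPM. Ciart rose by 0.78 (adjusted p = 4.11e-06), and Arntl2, a paralog of Arntl, rose by 1.73 (adjusted p = 2.68e-07) from 0.987 to 1.45 CPM in C3H to 3.78 to 4.71 CPM. Fbxl21, part of a ubiquitin ligase for cryptochromes, rose by 0.80 (adjusted p = 9.06e-05). Hlf, at 0.49, and Usp2, at 0.40, were higher at an adjusted p under 0.05 but under 1.5-fold. In rd2, 0 of the 18 were called, beside 2.68% of all genes higher and 1.89% lower, with a median of 0.02. There Bhlhe40 had 0.48 (adjusted p = 0.000578), Hlf 0.40 (adjusted p = 0.000338) and Tef 0.31 (adjusted p = 0.000246).

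**Figure D4:**
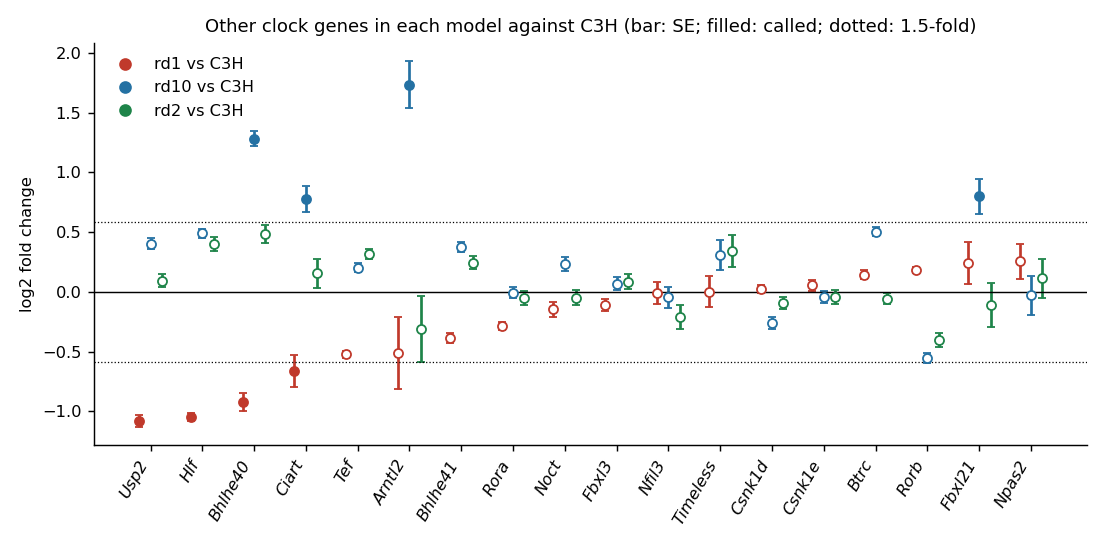
Log2 fold change with standard error of 18 further clock genes in rd1, rd10 and rd2 against C3H, ordered by the rd1 value. Filled points were called and dotted lines mark 1.5-fold; Usp2, Hlf, Bhlhe40 and Ciart are filled below 0 in rd1, and Bhlhe40 and Ciart are filled above 0 in rd10.

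Bhlhe40 and Ciart were thus called in rd1 and in rd10, in opposite directions. The direct contrast of rd10 with rd1 gave 2.23 for Bhlhe40 (SE 0.088, adjusted p = 1.95e-14) and 1.47 for Ciart (SE 0.12, adjusted p = 1.05e-09). In that contrast 7 of the 18 were called higher in rd10, among them Hlf at 1.57, Usp2 at 1.51 and Tef at 0.75, and 1, Rorb, was called lower, beside 17.6% and 11.2% of all genes.

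Of 11 genes by which the retinal clock receives or sends signals, 8 were tested in rd1 and rd2 and 7 in rd10. Drd4, the dopamine D4 receptor of photoreceptors, held 240 to 261 CPM in C3H, 117 to 128 in rd1, 189 to 216 in rd10 and 124 to 147 CPM in rd2. It fell by 1.03 in rd1 (SE 0.039, adjusted p = 3.43e-16) and by 0.89 in rd2 (SE 0.061, adjusted p = 3.05e-07), and had -0.33 in rd10 (adjusted p = 5.55e-06). Drd4 and Dbp therefore moved differently in rd10 and in rd2, where Dbp was above C3H. Th, the rate-limiting enzyme of dopamine synthesis, fell by 0.66 in rd1 (SE 0.22, adjusted p = 0.0169) at 1.5 to 2.8 CPM. Drd2 and Adcy1, a dopamine receptor and an adenylyl cyclase, fell in rd10 by 0.69 (adjusted p = 1.34e-09) and 0.63 (adjusted p = 1.77e-12). Opn4, the melanopsin of light-sensing ganglion cells, was at 3.6 to 5.5 CPM and was not called in any model. Aanat, of melatonin synthesis, was at 0.1 to 0.7 CPM, and Asmt and Mtnr1b were at or under 3 counts in each sample.

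Light, neuronal activity and stress hormones can set clock genes, so that genes which respond to them were read in the same fits. Of 10 immediate early genes, 9 were tested in rd1, and Fos, Fosb, Egr1 and Nr4a1 rose there, by 1.11 to 2.44, while Arc fell by 0.97 (adjusted p = 0.0139). In rd10, 6 were called higher, among them Junb at 2.09 and Fosb at 1.13, and Npas4 fell by 1.24 (adjusted p = 0.000459). In rd2, 5 of 9 were called lower, with Fos at -1.45, Npas4 at -1.28, Nr4a1 at -1.16, Fosb at -1.05 and Dusp1 at -0.80, and 0 higher. Their summed level was 166 to 175 CPM in C3H, 327 to 350.5 in rd1, 256 to 290.0 in rd10 and 94.4 to 102 CPM in rd2. The members did not share 1 order of the groups: the sum was highest in rd1 and lowest in rd2, while Arc, at 0.555 to 0.837 CPM in rd1 and 1.81 to 2.55 CPM in rd10, was lowest in rd1 and highest in rd10. Of 6 genes that glucocorticoids induce, of which 5 were tested in rd1, 1 was called lower in rd1, 2 higher in rd10 and 1 higher in rd2. Beside both lists, 8.98%, 15.9% and 2.68% of all genes were called higher in rd1, rd10 and rd2. Called lower were 6.03%, 8.08% and 1.89% in the same order. Sgk1 fell by 0.64 in rd1 (adjusted p = 4.41e-08) and rose by 1.85 in rd10 (adjusted p = 5.42e-17). It held 25.5 to 27.9 CPM in C3H, 16.3 to 17.2 in rd1, 94.7 to 97.0 in rd10 and 28.5 to 33.0 CPM in rd2. The genes of this list did not all move alike. Fkbp5 was higher in rd1, at 0.31 (adjusted p = 7.61e-05), and Tsc22d3 had -0.32 in rd1 and 0.021 in rd10 (adjusted p = 0.772). The part of these responses in the clock gene values was not tested. Sult1a1 rose by 1.99 in rd10 (adjusted p = 6.29e-07) and had 0.88 in rd2, with an adjusted p of 0.092.

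**Figure D5:**
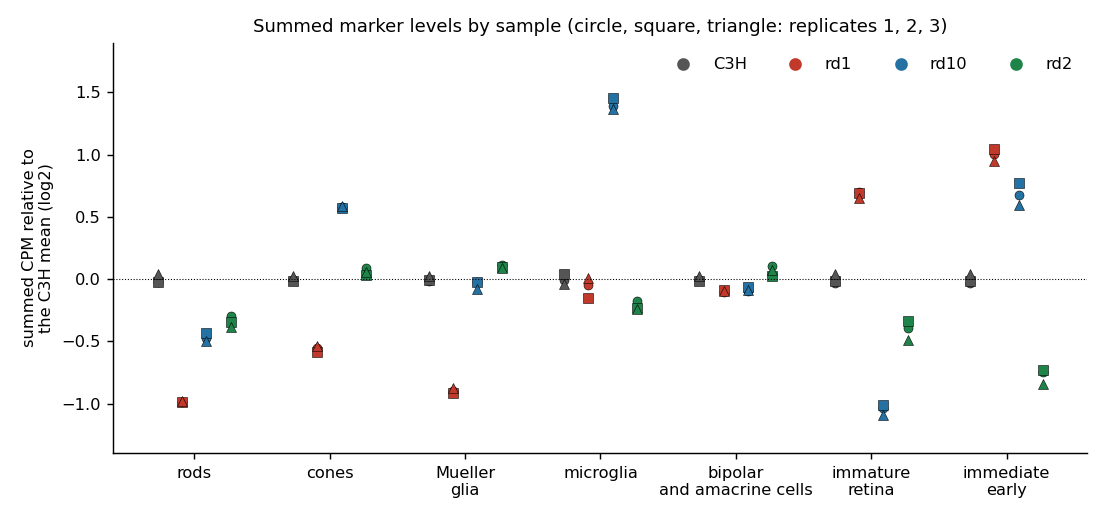
Summed CPM of marker lists in each of the 12 samples relative to the mean of the C3H samples, on a log2 axis. Colours are groups and markers are replicates 1 to 3; in rd1 the rod, cone and Mueller glia sums lie below C3H and the sums of immature and immediate early genes above it, and in rd10 the microglia sum lies highest, at 137 to 146 CPM against 51.8 to 54.9 in C3H.

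Levels of cell type markers differed between the models. The summed level of 7 rod markers, among them Nrl and Gnat1, was 11713 to 12279 CPM in C3H, 6008 to 6044 in rd1, 8425 to 8807 in rd10 and 9136 to 9695 CPM in rd2, and 4, 3 and 2 of the 7 were called lower in rd1, rd10 and rd2. The rod markers did not fall together. In rd10 the 3 called were Nrl, Nr2e3 and Sag, while Gnat1 had -0.060 and Pde6a 0.0092, and in rd1 Nr2e3 had 0.083. For 7 markers of Mueller glia the sums in C3H, rd1, rd10 and rd2 were 3389 to 3495, 1819 to 1871, 3255 to 3378 and 3653 to 3721 CPM, and for 8 cone markers 518 to 534, 349.8 to 361.5, 780.1 to 789.5 and 537.5 to 559 CPM in the same order. Of the Mueller glia markers, 3 of 7 were called lower in rd1, Glul at -1.54, Aqp4 at -1.38 and Kcnj10 at -1.10, while Slc1a3 had 0.0005 and Gfap 0.043. Glul, the glutamine synthetase, made up most of the fall of the sum, from 1788 to 1855 CPM in C3H to 599 to 623 CPM in rd1. In rd10 the sum took in opposite changes, since Gfap, which rises in reactive glia, was 9.14-fold higher (adjusted p = 2.21e-21) and Slc1a3 1.69-fold lower, both called. In rd2, 0 of the 7 were called. The sums of rods, cones, Mueller glia, pigment epithelium and lens were each lowest in rd1. The sum of the 6 glucocorticoid genes was lowest in rd1 too, at 90.6 to 92.5 CPM. Bipolar and amacrine markers stayed between 2273 and 2617 CPM in the 12 samples, with 0 of 7 called in any model. Of the microglia markers, 6 of 7 were called higher in rd10, 1 of 6 in rd1 and 1 of 7 in rd2. Of the cone markers, 4 were called lower and 1 higher in rd1, and 4 higher and 1 lower in rd10. Outside the lens list, where Lim2 was, no marker was at or under 3 counts in all samples. Beside these counts, 8.98%, 15.9% and 2.68% of all genes were called higher in rd1, rd10 and rd2. Called lower were 6.03%, 8.08% and 1.89% in the same order. The 10 immature retina genes, beside the same shares, had 7 called higher in rd1, 6 lower and 1 higher in rd10, and 4 lower in rd2. Their sum was 277 to 292 CPM in rd10, labelled day 23, and 421 to 468 CPM in rd2, labelled day 29. It was thus lower in the younger of these groups. From highest to lowest, the order rd1, C3H, rd2, rd10 was that of Arntl levels and of no other clock member. Lens markers summed to 0.22 to 5.06 CPM, pigment epithelium markers to 21.8 to 42.0 CPM and red blood cell markers to 43.4 to 83.1 CPM. The part of cell makeup and of age in the clock gene values was not tested.

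Patterns over the 12 samples were compared by the root mean square difference of log2 CPM, each gene centred on its own mean. Among 19615 other genes, those near to Dbp included Scn2b at 0.099, Lgi3 at 0.106, Chrm1 at 0.126 and Plk5 at 0.130. The nearest member was Nr1d1, in place 144 at 0.244. Nearest to Arntl were Rad54l2 and Celf1 at 0.045, Sept3 and Ncoa2 at 0.046 and Yeats2 at 0.048, and its nearest member, Cry1, was in place 7451. These small values go with a small spread, since Arntl itself had a root mean square of 0.181 about its mean and Dbp one of 0.576. Per1 and Cry2 were the closest pair of members, at 0.064, in place 19 as seen from Per1 and 43 as seen from Cry2. Per2 and Nr1d1 stood at 0.174 from each other and Per3 and Nr1d2 at 0.125. No member was among the 5 nearest genes of Dbp or Arntl.

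Circular RNAs (circRNAs), which arise by back-splicing of exons, were read as junction counts from the same libraries, of 9819 to 25009 reads a sample. Of 12510 circRNAs, 6 had a member as host gene, 1 of Clock, 1 of Arntl, 2 of Cry1 and 2 of Nr1d2, and Dbp, Nr1d1 and the Per genes had none. The other 5, with 2 to 9 reads in all samples together, were too thin to test. The circRNA at chr10:85143016-85157194, whose ends are exon ends of Cry1, had 24 reads, with 1, 2 and 3 in C3H, 2, 0 and 0 in rd1, 6, 0 and 6 in rd10 and 0, 4 and 0 in rd2. Its log2 fold change was -1.15 in rd1 (SE 1.34, adjusted p = 0.973), 0.68 in rd10 (SE 1.03, adjusted p = 0.874) and -0.65 in rd2 (SE 1.32, adjusted p = 0.997) by edgeR. In all, 0 were called and 0 had an unadjusted p under 0.05 in any model, while 6.37%, 11.8% and 3.44% of the circRNAs tested were called in rd1, rd10 and rd2 at 2-fold. A change in circRNAs of clock genes was not detectable at this depth.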

How the data were processed

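Gene counts, FPKM values and circRNA junction counts of 12 retina samples were grouped by their labels. The authors aligned directional reads, depleted of ribosomal RNA, to GRCm38 with HISAT2 and counted them per gene with HTSeq 0.11.2, and the counts were deposited without normalization. The deposited FPKM values divide them by gene length and reads on genes, which was checked on 16259 genes. The authors took circRNA junction counts from TopHat2 2.1.1 and CIRCexplorer, and the deposited TPM values scale them to the junction total. Tests over all genes used edgeR 4.0.16 in R 4.3.3 (TMM, filterByExpr, quasi-likelihood, Benjamini-Hochberg adjustment), after trials on simulated data. CircRNAs needed 2 junction reads in 3 of 6 samples and, for a call, an unadjusted p under 0.05 and 2-fold. Members and gene lists were chosen with earlier results of these data known. Named are all members, list genes that were called or whose level the text turns on, and the 5 genes nearest in pattern to Dbp and to Arntl. Some genes of these sets are not reported here and were left out of the list counts and sums. Positions are from GENCODE vM21. Nothing in the labels says that replicates came from separate litters, so p-values measure the spread between these samples, which may be technical. The fits were repeated with other size factors, DESeq2 1.42.0, limma 3.58.1 after adding 1 or 0.1 to FPKM (1 to circRNA TPM), no filter, adjusted p alone, all 12 samples in 1 fit, a replicate block, samples left out in turn and the same-day C3H sample alone. Tables came from pandas 2.3.3 and figures from matplotlib 3.10.9.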

Additional observations from a re-analysis of the deposited data

Results flagged for a closer look

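Members whose level differed between 2 models in the direct contrast, past 1.5-fold, were marked for a closer look. Between rd10 and rd1, these were Nr1d1 at a log2 difference of 1.40, Dbp at 1.36 and Per2 at 1.06. Between rd1 and rd2 they were Dbp at -1.43, Nr1d1 at -0.91, Per3 at -0.86, Per2 at -0.71 and Nr1d2 at -0.62. The models compared also differ in labelled age. The groups of 3 are too small to search for single samples that stand apart.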

How the results depend on the processing

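The counts of members called kept within 1.5 times of their main values (3 in rd1, 0 in rd10 and 0 in rd2 against C3H, 3 between rd10 and rd1, 0 between rd10 and rd2, 5 between rd1 and rd2) under DESeq2, other size factors, no filter and all 12 samples in 1 fit. With adjusted p under 0.05 as the only rule the counts were 10, 7, 3, 9, 7 and 10 in that order. Limma on log2(FPKM + 1) gave 3 between rd1 and rd2, and limma on log2(FPKM + 0.1) gave 1 in rd10 against C3H. The cause was not tested. Leaving out a sample gave 3 to 3 in rd1, 0 to 0 in rd10 and rd2, 3 to 4 between rd10 and rd1, 0 to 0 between rd10 and rd2 and 4 to 5 between rd1 and rd2, and 0 to 0 circRNAs. With a replicate block the counts were 3, 0, 0, 3, 0 and 5. The main fits did not pair samples by number. Correlations of same-numbered samples were between -0.105 and 0.299, and not all were over 0.1 in any comparison. For numbers 1, 2 and 3 they were -0.105, 0.28 and 0.299 between rd1 and rd2. Between rd10 and rd2 they were 0.023, 0.225 and 0.202. Whether same-numbered samples shared a batch was not tested. For single members, 832 of 840 values stayed on the same side of the rule, 6 lost and 2 gained a call, and 0 reversed among called values. In 7 pairs of member and comparison an uncalled value changed sign under some alternative. Depth limits the circRNAs, with 24 reads at most on a member's junction.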
